A study of Gasterosteus aculeatus with 29 samples.

Results

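The comparison asks what a juvenile three-spined stickleback's own experience of predation risk changes in its brain when its father had met no such risk. The sample labels, and no measured value, decide which fish belong to it. They are the 14 offspring of unexposed fathers, out of 29 fish in the study: 9 that were exposed to predation risk as juveniles, called personal only, and 5 that were not, called neither. The other 15 fish are offspring of fathers that were exposed while caring for them. Of these, 8 had no exposure of their own (paternal only) and 7 had it (both). They are part of the main fit, where they share in the estimates of spread, sex and sibling correlation. Their own values enter only where stated. Each library is the poly-A RNA of 1 whole brain of Gasterosteus aculeatus. The labels do not give the predator cue or the fish's age, and all fish were netted from their home tanks. Personal only fish came from 5 fathers (5 females, 4 males) and neither fish from 3 (2 females, 3 males).

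In this species the male builds the nest, fans the eggs and guards the young, so offspring meet risk both on their own and through a father that meets it. In fish generally, predator cues alter activity, shoaling and shelter use, and they engage the hypothalamic-pituitary-interrenal axis, whose end product is cortisol. The brain both reads the cue and commands that response, through neurons, glia and neuroendocrine cells that are mixed in whole-brain RNA. In such bulk RNA, fewer cells of a type and less RNA per cell cannot be told apart. The deposited table pairs no identifier with a symbol, and none of its identifiers matched the reference table, so stress-axis genes, immediate early genes and cell type markers could not be looked up and the tissue label could not be checked against markers.

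Family and sex are entangled with exposure. Father M8 has 2 neither sons and 2 personal only daughters. Father M20 has 1 neither daughter and 2 personal only sons. Father M33 has a neither daughter, a neither son and a personal only son, the only exposed and unexposed siblings of the same sex. All 4 offspring of fathers M31 and M41 are personal only, so those families carry no within-family contrast. The fit therefore held sex as a term and father as a random block.

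The 14 libraries held 2844706 to 47411814 reads in the table (median 5589415.5). Neither replicate 3, a son of M8, stood apart. Of the tested genes, 35.4% lay over 2-fold from the median library there, against 2.90% to 6.67% in the other 13 libraries. Over genes, the interquartile range of its deviation from the median library reached 1.52 log2 units, where the other 13 had 0.251 to 0.417. Results are therefore given with and without it. Neither replicate 5 and personal only replicate 5, the M33 brothers from the same lane, were the closest pair at 1.58 times the variance of read sampling, where the next pair had 2.39 times, and both were kept. Levels of the 5 genes higher in males minus the 5 higher in females lay between -4.46 and -3.85 log2 units in the 7 labelled females and between -0.48 and -0.053 in the 7 labelled males. The genes were picked by labelled sex in all 29 libraries, so this check of the labels is not independent of them. No label of the 14 went against these genes, but both replicate 7, of the other 15 fish, is labelled male and stood at -3.63. It enters the fit through the sex term, and leaving it out gave 0 calls with 3350 genes at an unadjusted p under 0.05, or 663 without neither replicate 3 as well. Read depth, genes detected and this spread did not differ between personal only and neither by more than the variation between fish (exact two-sided permutation tests over 2002 arrangements of the fish, adjusted p = 0.616 for each of the 3 measures). These tests included neither replicate 3, took siblings as unrelated and were not repeated without it. The other neither fish had a spread of 0.267 to 0.338, and personal only fish 0.251 to 0.417.

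No gene passed the test for own exposure. The fit held all 29 libraries, so the 15 offspring of exposed fathers shared in its estimate of spread. Among 16660 genes tested by limma with Benjamini-Hochberg adjustment, 0 were called at an adjusted p under 0.05 (0% of those tested), and the lowest adjusted p reached 0.213. Before adjustment 3410 genes, or 20.5%, had a p under 0.05, of which 1926 were higher and 1484 lower in personal only. When neither replicate 3 was left out, limma again called 0 genes (0%), with a lowest adjusted p of 0.998. Then 647 genes, or 3.88% (406 higher, 241 lower), had an unadjusted p under 0.05, below the 833 that make up a share of 0.05 of the genes. An unadjusted p under 0.01 was reached by 750 genes (4.5%) when every library was used and by 110 (0.66%) without it. Reads recovered from the table and tested by limma-voom gave 0 calls too, and 2584 or, without neither replicate 3, 893 genes below 0.05 unadjusted.

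**Figure D1:**
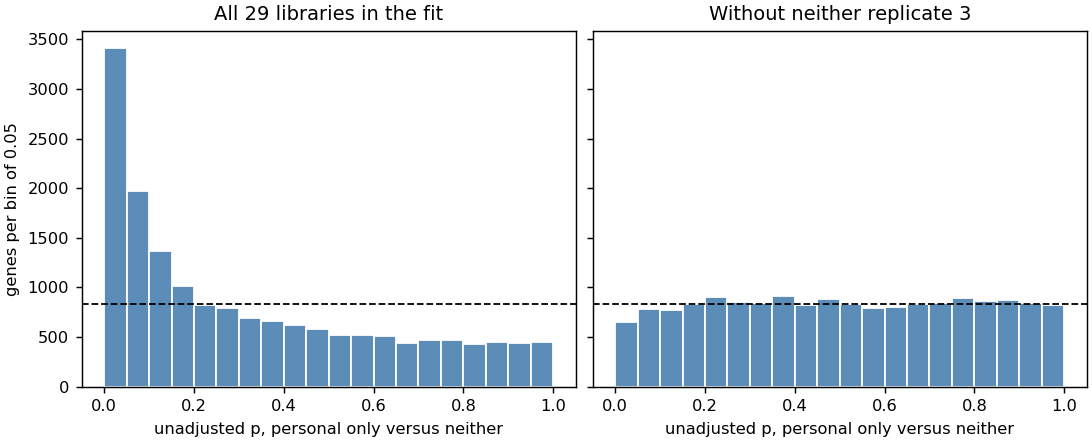
Unadjusted p-values of personal only versus neither over 16660 genes, in bins of 0.05 (x axis, p; y axis, genes per bin), using every library (left) or leaving out neither replicate 3 (right). The dashed line marks 833 genes; the lowest bin holds 3410 genes on the left and 647 on the right.

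In the fit of all 29 libraries, the surplus of low p-values moved with that single library. With that library kept, the surplus was smaller when only the 14 fish were fitted, at 1578 genes under 0.05 unadjusted. Without that library the same fit gave 931, above the 833 that make up a share of 0.05. With father as a fixed block the 14 fish gave 868 genes, and 666 without that library. Neither replicate 3 was the highest or lowest of the 5 neither fish at 79.4% of all tested genes, where the other 4 were extreme at 19.7% to 41.8%. Among the 3410 genes at an unadjusted p under 0.05 it was extreme at 96.0%. The 750 genes at an unadjusted p under 0.01 had a median absolute difference of 0.48 log2 units with it and 0.26 without it. Of these 750, 97 were still at an unadjusted p under 0.01 without it, and 477 under 0.05. The 3410 and 750 genes were chosen in a fit that held neither replicate 3. That choice itself favours an extreme value there and a smaller difference once the library is left out.

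Leaving out its brother, neither replicate 2, gave 975 called genes (5.85% of those tested), 652 higher and 323 lower in personal only, in a fit that kept neither replicate 3. Neither replicate 3 was the extreme neither fish at 98.4% of the 975. Their median absolute difference was 0.60 log2 units in that fit and 0.21 when neither replicate 3 was left out in place of its brother, and 399 of them were then at an unadjusted p under 0.05. With both brothers left out, 0 genes were called and 310 of the 975 were at an unadjusted p under 0.05. The 975 were likewise chosen in a fit that held neither replicate 3, which favours its being extreme and smaller differences without it. Leaving out any other of the 14 fish gave 0 calls, and the offspring of exposed fathers were not left out singly except both replicate 7.

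**Figure D2:**
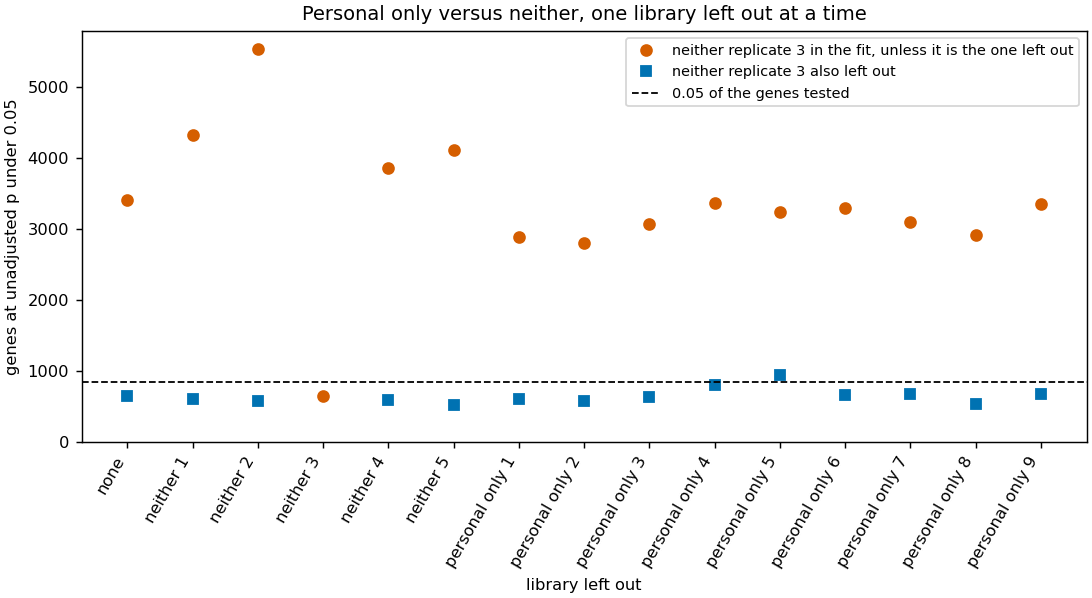
Genes at an unadjusted p under 0.05 (y axis) when 1 library is left out (x axis). Circles keep neither replicate 3 in the fit unless it is the library left out (647 genes), and squares leave it out as well. With neither replicate 3 in the fit the counts run from 2797 to 5529; without it they run from 519 to 944, and 944, without personal only replicate 5, is the only one above the dashed line at 833.

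How finely the fit resolved a difference varied with a gene's level. With neither replicate 3 left out, the median 95% interval reached 0.29 log2 units to either side of the estimate, a 1.22-fold change. For 14484 genes (86.9%) the whole interval lay within 2-fold of no difference, and for 11709 (70.3%) within 1.5-fold. Among the 3028 genes with a mean of 5 to 7 log2 CPM (reads scaled to library size, on the log2 scale) the median reach was 0.20, and 99.0% had an interval within 2-fold. Among the 2367 genes with a mean under 1 log2 CPM it was 0.86, and 38.8% had an interval within 2-fold. For most brain genes of moderate or high level, a 2-fold change with own exposure thus lay outside the 95% interval, and for most genes with a mean under 1 log2 CPM it did not. The intervals are per gene and were not adjusted for the number of genes.

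**Figure D3:**
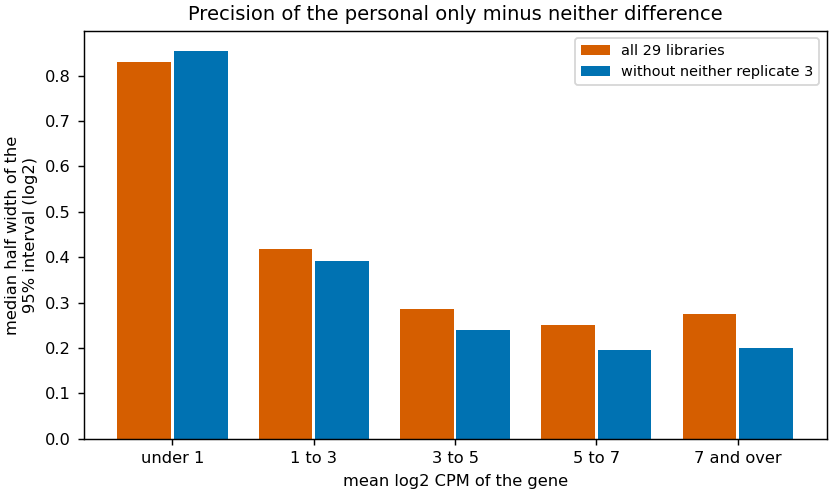
Median reach to either side of the 95% interval of the personal only minus neither difference (y axis, log2 units) by the gene's mean log2 CPM (x axis), from 29 libraries or from 28 with neither replicate 3 left out. The reach falls from 0.83 and 0.86 in the lowest class to 0.25 and 0.20 at 5 to 7 log2 CPM.

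Genes were named by the smallest p-values, at most 2 higher and 2 lower per fit, and since none was called their values are descriptions of the strongest candidates. ENSGACG00000020611 led in both fits. The neither fish had 1.34, 1.16, 0.16, 1.25 and 1.68 log2 CPM (replicates 1 to 5). The personal only fish ran from 1.61 to 2.49, with a median of 1.99. Of the exposed fish, 8 of 9 lay above every neither fish, and the daughter of M41 at 1.61 lay just below the M33 son at 1.68. The difference was 0.94 ± 0.20 (SE; limma adjusted p = 0.213), a 1.91-fold level, and 0.74 ± 0.18 without neither replicate 3 (adjusted p = 0.998), a 1.67-fold level. The gene had 8 to 407 reads per library.

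ENSGACG00000016862 was the other higher gene in both fits. Neither fish had 2.66, 2.74, 1.24, 2.36 and 2.10 log2 CPM, and personal only fish 3.04, 3.37, 3.03, 2.99, 2.64, 3.11, 3.27, 3.54 and 3.17. Again 8 of 9 exposed fish lay above every neither fish, the exception being the M33 son at 2.64. Its difference was 0.86 ± 0.19 (SE; limma adjusted p = 0.213) and, without neither replicate 3, 0.59 ± 0.15 (adjusted p = 0.998).

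On the lower side, ENSGACG00000007219 came first in both fits. It had 3.39, 3.17, 4.13, 3.39 and 3.48 log2 CPM in neither and 2.69, 3.08, 2.93, 3.18, 3.02, 2.84, 3.20, 3.24 and 3.10 in personal only. The groups overlapped only through the M8 son at 3.17, which 6 of 9 exposed fish lay below. The difference was -0.49 ± 0.12 (SE; limma adjusted p = 0.213) and -0.33 ± 0.093 without neither replicate 3 (adjusted p = 0.998). ENSGACG00000004905 had 5.03, 5.31, 5.93, 5.49 and 5.35 in neither and 4.71 to 5.12 in personal only (median 4.98), with 8 of 9 exposed fish below all neither fish. It differed by -0.44 ± 0.11 (SE; limma adjusted p = 0.213) and by -0.31 ± 0.097 without neither replicate 3 (adjusted p = 0.998).

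ENSGACG00000012668 was among the lowest p-values only once neither replicate 3 was left out. That library had 0.86 log2 CPM, below all 9 personal only fish (1.05 to 1.55, median 1.29), whereas the other 4 neither fish had 2.07, 1.55, 1.83 and 1.54. The difference was -0.29 ± 0.15 (SE; limma adjusted p = 0.261) with it and -0.45 ± 0.13 without it (adjusted p = 0.998). In all 5 of these genes neither replicate 3 held the highest or lowest neither value. It did so at 79.4% of all tested genes, so this does not set the 5 apart.

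**Figure D4:**
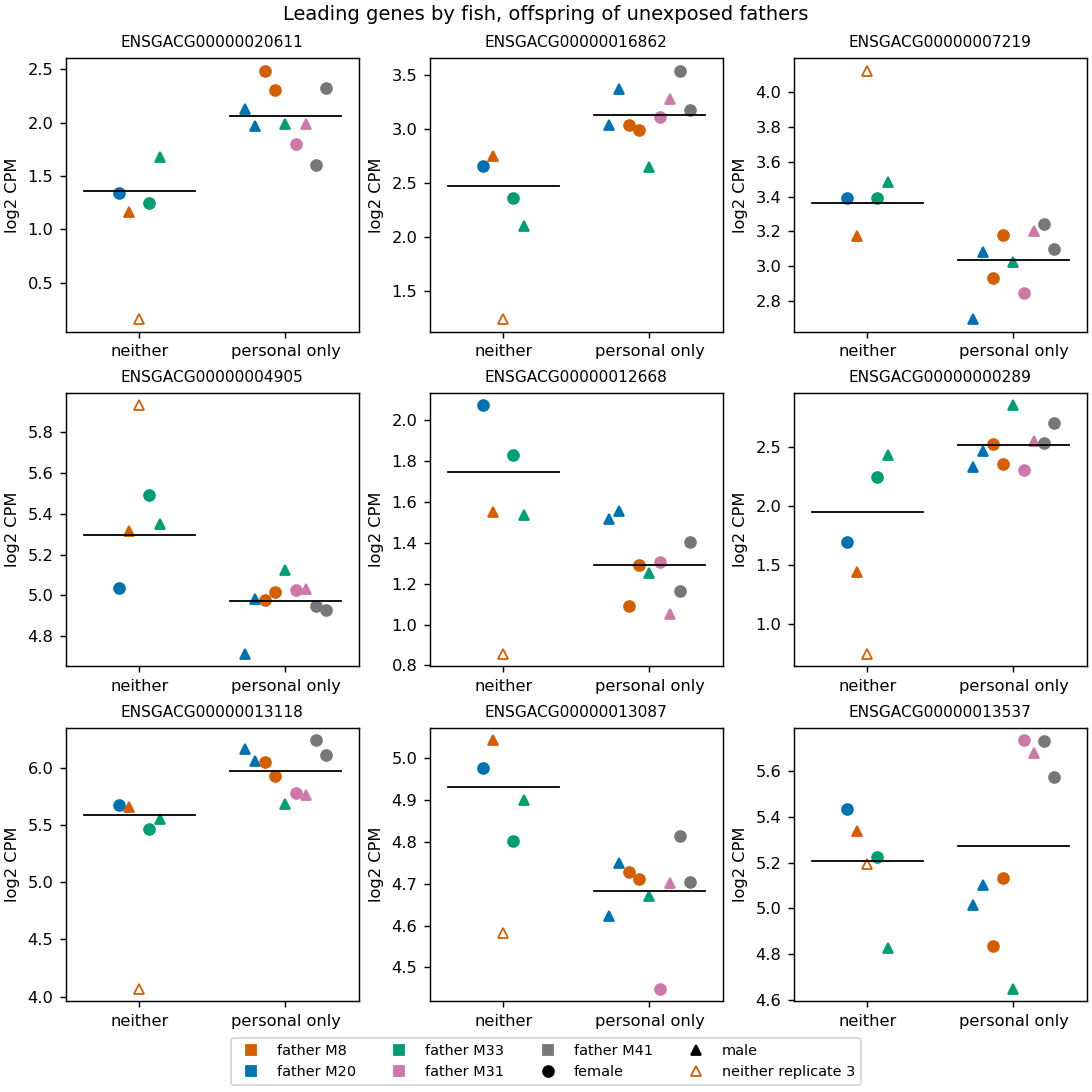
Log2 CPM (y axis) of the 9 named genes in each neither and personal only fish (x axis), coloured by father, with circles for females, triangles for males and an open triangle for neither replicate 3. Lines are group means without that library; for ENSGACG00000013118 all 9 personal only fish, from 5.68 upward, lie above all neither fish, and for ENSGACG00000013537 the 4 offspring of M31 and M41 lie above all others.

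A comparison among siblings removes what a family shares. With father as a fixed block and without neither replicate 3, limma called 0 genes (0%), and 666 (4%) had an unadjusted p under 0.05. Within families this fit sets 4 neither fish against 5 exposed siblings, and in M8 and M20 the siblings compared also differ in sex. The genes named from this fit were chosen by its p-values, a choice that favours differences of the same sign in M8, M20 and M33. Their agreement across families is therefore a description. ENSGACG00000000289 had the smallest p-value among higher genes. Neither fish had 1.69, 1.44, 0.74, 2.24 and 2.43 log2 CPM, and personal only fish 2.33, 2.47, 2.53, 2.35, 2.86, 2.30, 2.55, 2.54 and 2.70. Exposed siblings were higher by 1.00 in M8 (neither replicate 3 left out), 0.71 in M20 and 0.52 in M33, and the fit gave 0.75 ± 0.14 (SE; limma adjusted p = 0.991).

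ENSGACG00000013118 had 5.68, 5.66, 4.07, 5.47 and 5.55 log2 CPM in neither, and its lowest personal only fish stood at 5.68, with a median of 6.06 and a highest value of 6.24. All 9 exposed fish lay above all 5 neither fish, the narrowest margin being 5.6811 against 5.6799. Within families it was higher by 0.33 in M8 (neither replicate 3 left out), 0.44 in M20 and 0.17 in M33, and by 0.31 ± 0.071 in the fit (SE; limma adjusted p = 0.991). Keeping neither replicate 3, the M8 difference was 1.13 and the sibling fit gave 0.66 ± 0.26 (adjusted p = 0.544). Over all tested genes, 31 (0.186%) had every personal only fish above every neither fish and 11 (0.066%) had every one below. Against the 4 remaining neither fish these counts were 35 (0.21%) and 15 (0.09%). How many genes would separate so if exposure changed nothing was not tested, so the counts do not mark ENSGACG00000013118 as unusual.

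ENSGACG00000013087 had 4.98, 5.04, 4.58, 4.80 and 4.90 log2 CPM in neither and 4.45 to 4.81 in personal only (median 4.71). Of the exposed fish, 8 of 9 lay below the 4 neither fish other than replicate 3, and siblings differed by -0.32 in M8, -0.29 in M20 and -0.18 in M33. The sibling fit gave -0.28 ± 0.073 (SE; limma adjusted p = 0.991). When neither replicate 3 was kept, the M8 difference was -0.093 and the sibling fit gave -0.18 ± 0.12 (adjusted p = 0.544). For ENSGACG00000013537 the family means of exposed siblings stood lower by -0.36 in M8 (neither replicate 3 left out), -0.38 in M20 and -0.38 in M33. These differences of means were not adjusted for sex. In M33 the exposed son had 4.65 log2 CPM, his neither brother 4.83 and his neither sister 5.23. The sibling fit gave -0.35 ± 0.094 (SE; limma adjusted p = 0.991). With father as a random block and the same libraries the estimate was -0.044 ± 0.15 (adjusted p = 0.998). The M31 and M41 offspring had 5.57 to 5.74 log2 CPM and the other exposed fish 4.65 to 5.13. The within-family values are those by which the gene was chosen.

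In the same 13 fish and the same fixed-block fit, the other terms of the design were called where own exposure was not. Sex gave 402 genes at an adjusted p under 0.05 (2.41%) and father, over its 4 degrees of freedom, 333 (2%), against 0 for own exposure in limma. With neither replicate 3 included the fit called 305 genes by sex, 37 by father and 0 by own exposure. This comparison of terms was added after the data were seen, and the counts were not tested against each other. Own exposure rests here only on families with both exposed and unexposed siblings. The precision of the terms was not compared, so the counts do not rank the terms by size of effect. In the separate random-block fit of all 29 libraries, the consensus correlation of siblings was 0.111, and 0.162 once neither replicate 3 was left out. These 2 values thus also draw on the offspring of exposed fathers.

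Among abundant genes few differed by much. With neither replicate 3 left out, 8 of the 9984 genes with a mean of at least 3 log2 CPM differed over 2-fold (0.0801%), 2 higher and 6 lower in personal only, and none was called. In 7 of the 8 the personal only fish spanned more than 3 log2 units among themselves. The following genes were chosen after their values were seen. The 4 neither fish spanned 2.17 to 9.24 log2 CPM for ENSGACG00000003787, 3.47 to 8.44 for ENSGACG00000006511 and 1.40 to 8.44 for ENSGACG00000014689. Wide ranges thus also occurred among unexposed fish. In the remaining genes the 4 neither fish lay closer together. The 2 higher genes were among them. ENSGACG00000010777 had 1.34 to 1.81 log2 CPM in the 4 neither fish, 5.13 in neither replicate 3 and 1.24 to 5.35 in exposed fish. ENSGACG00000019018 had 2.12 to 2.70, 0.86 and 2.39 to 4.88 in the same order. Its M31 and M41 offspring had 4.43 to 4.88. The 2 genes differed by 1.55 ± 0.67 and 1.01 ± 0.51 (SE; limma adjusted p = 0.998 for each). ENSGACG00000011018 had 7.27 to 7.30 log2 CPM in the 4 neither fish and 6.63 to 7.45 in 8 exposed fish, but -1.83 (5 reads) in personal only replicate 3, a daughter of M8 whose sister had 7.29. ENSGACG00000014031 was also nearly missing from that fish, at -2.54 (3 reads), where the 4 neither fish had 6.84 to 7.13 and the other exposed fish 6.14 to 7.18. Without that daughter their differences went from -1.23 ± 1.48 and -1.24 ± 1.55 to -0.12 ± 1.17 and -0.11 ± 1.25 (SE). The SEs draw on the spread in all groups of the fit. That includes offspring of exposed fathers, whose values for these genes are not given here. ENSGACG00000020941 was nearly missing from both M31 siblings, with -2.10 (2 reads) in the daughter and -1.04 (3 reads) in the son, and had 6.16 to 6.79 in the other 7 exposed fish and 6.43 to 7.03 in the 4 neither fish. Its difference was -1.64 ± 1.91 (SE; limma adjusted p = 0.998), and the M31 family has no unexposed fish to set beside it.

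**Figure D5:**
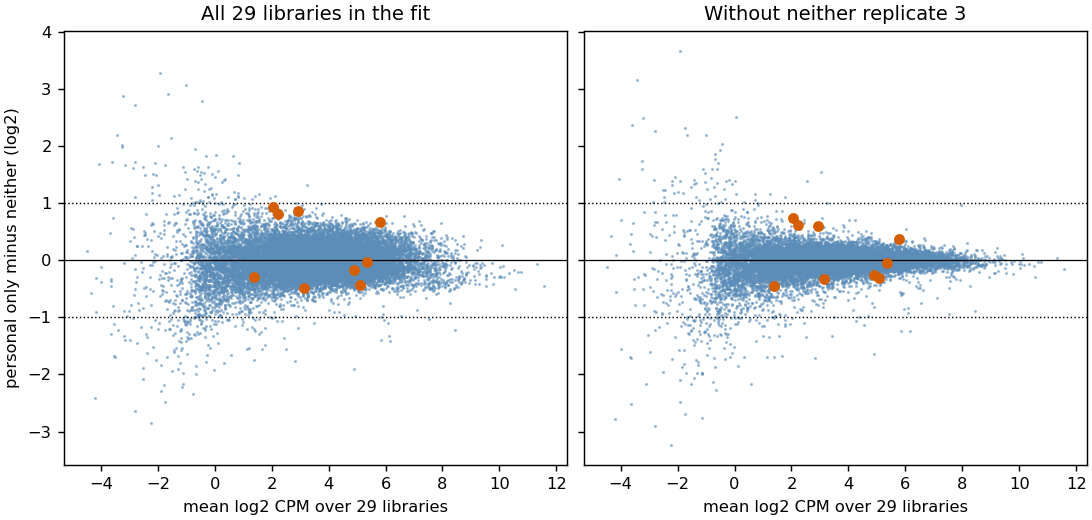
Personal only minus neither (y axis, log2 units) against mean log2 CPM (x axis) for 16660 genes, using every library (left) or leaving out neither replicate 3 (right); dotted lines mark 2-fold, and large points are the 9 named genes. The cloud narrows without neither replicate 3, the 5th and 95th percentiles going from -0.50 and 0.50 to -0.41 and 0.29.

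The median spread within groups was not smaller in personal only than in neither once neither replicate 3 was set aside. The median within-group SD over genes, adjusted for sex, was 0.17 log2 units in 4 neither fish and 0.23 in 9 personal only fish, and 32.2% of genes had the larger SD in neither. With all 5 neither fish it was 0.42, and 71.3% of genes had the larger SD in neither. These shares were not tested. An SD from 4 fish more often comes out low than one from 9 fish of equal spread. Personal only fish also came from 5 fathers and neither fish from 3, so these values cannot rank the groups.

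Own exposure was also applied to offspring of exposed fathers, which share no library with the 14 fish. There limma called 0 genes (0%). It also called 0 genes (0%) for the difference of the effects between the paternal backgrounds. For that difference 1797 genes had an unadjusted p under 0.05, or 706 without neither replicate 3, where a share of 0.05 is 833. Limma-voom called 1 gene for that difference, ENSGACG00000015268, named after its values were seen, at -2.68 ± 0.44 log2 units (SE; adjusted p = 0.0291), and at -2.72 ± 0.45 without neither replicate 3 (adjusted p = 0.0311). Its mean level was 0.81 log2 CPM. With neither replicate 3 left out, Pearson's r across the 16660 genes between the estimated effects was 0.079 and Spearman's rho -0.0072, as a description across genes that are not independent replicates and come from a fit with a common sex term. With all libraries r was -0.037 and rho -0.079, so that the sign of r turned with neither replicate 3. Signs matched at 48.2% of all genes without it and at 46.7% with it. Of the 110 genes that had an unadjusted p under 0.01 without it in offspring of unexposed fathers, 41 (37.3%) had the same sign in offspring of exposed fathers. Of the 110, 1 had the same sign at an unadjusted p under 0.05 there, and 3 had the opposite sign at that level. Among all 16660 genes, 595 reached that level in offspring of exposed fathers without neither replicate 3, so these small counts do not set the 110 apart. With it, 300 of 750 genes (40%) had the same sign.

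The named genes show how the neither group stood among the 4 groups. ENSGACG00000020611 averaged 1.36 ± 0.23 log2 CPM in neither without replicate 3 (SD, n = 4), 2.07 ± 0.28 in personal only (n = 9), 2.28 ± 0.41 in paternal only (n = 8) and 2.41 ± 0.40 in both (n = 7). ENSGACG00000016862 averaged 2.47 ± 0.29, 3.13 ± 0.25, 3.07 ± 0.20 and 2.98 ± 0.32 in the same order. ENSGACG00000007219 ran the other way, at 3.36 ± 0.13, 3.03 ± 0.18, 3.05 ± 0.094 and 3.09 ± 0.15. In each of these the personal only, paternal only and both means all lay on the same side of neither. The genes were chosen for the first of these differences. All of the differences share the same neither fish, so that choice also favours the same side for paternal only and both. ENSGACG00000013087 did not follow that order, with 4.93 ± 0.10, 4.68 ± 0.10, 5.06 ± 0.17 and 5.00 ± 0.11, personal only being the lowest group. The effect of own exposure in offspring of exposed fathers was 0.16 ± 0.15 for ENSGACG00000020611, -0.12 ± 0.13 for ENSGACG00000016862, 0.042 ± 0.079 for ENSGACG00000007219 and 0.34 ± 0.16 for ENSGACG00000000289 (SE, without neither replicate 3; limma adjusted p = 0.998 for each). Between paternal backgrounds the effects differed by -0.71 ± 0.20 for ENSGACG00000016862 and by 0.66 ± 0.17 for ENSGACG00000012668 (limma adjusted p = 0.99 for each). These differences were not called. The genes were chosen for their effect in offspring of unexposed fathers, and that choice tends to enlarge such differences.

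By sex, with neither replicate 3 left out, ENSGACG00000020611 averaged 1.29 in 2 neither and 2.11 in 5 personal only females, and 1.42 in 2 neither and 2.02 in 4 personal only males. ENSGACG00000012668 averaged 1.95 and 1.25 log2 CPM in females and 1.55 and 1.34 in males. Whether the sexes differed in response was not tested here.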

How the data were processed

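Whole-brain poly-A RNA of 29 fish was sequenced single-end. Groups, fathers, sexes and lanes were read from the labels, and replicates were numbered in deposition order, so replicate numbers pair nothing. Per the submitters' processing notes the authors' tools were HTSeq 0.6.1, TopHat2 2.0.8, CASAVA 1.8.2 and edgeR, in no stated order. NCBIM37, which is an assembly of the mouse, is the sole build in the notes, so no coordinates are given, and the stickleback build, annotation and strand setting are not given in the sources used here. Overlapping genes and close paralogs may therefore share reads. The authors deposited log2 CPM values for 17730 genes. Values above the floor of -6.77 were whole multiples of 1 read in 100% of cases (tolerance 0.01 reads), which gave the reads and depths. Intervals cover the spread between fish, and read counts counting error only. The small count added to the reads before taking log2 (0.25 reads, scaled to library size) understates changes of low genes.

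The 16660 genes exceeding 0 log2 CPM in 5 or more libraries were tested in R 4.3.3 by limma-trend (versions: limma 3.58.1, with statmod 1.5.0) over all 29 libraries, with 4 group means, sex and father as a random block, and Benjamini-Hochberg adjustment over all tested genes at 0.05. Named genes were the smallest p-values with a mean of at least 1 log2 CPM, 2 per direction in each of 3 fits. The test was also run on simulated reads. These held no sibling effect, sex effect or outlying library, so that run cannot show how the test handles them. The labels assign each fish to its group, but this comparison, its lists and its rules were picked with earlier results of these data known. Alternatives covered libraries, fathers, blocks, terms, filters, normalization and tool. The gene lists and markers were not used, because 0 identifiers matched symbols.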

Additional observations from a re-analysis of the deposited data

Results flagged for a closer look

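A fish that stood far off its own group was looked for in 30 groups of values: library measures and named genes, each over the 5 neither or the 9 personal only fish. This gave 6 such fish and measures, 5 of them neither replicate 3, where about 1 group in 20 would show one by chance. That rate is only a rough guide, because the library measures overlap and the named genes were picked from fits of these fish. In neither replicate 3 the interquartile range of the deviation from the median library was 1.52 log2 units, and the next neither library had 0.338. Its tabulated values summed to 61.3% of the scaled library size (next 46.4%), the 10 most read genes held 5.68% of its reads (next 3.81%), and 35.4% of its genes lay over 2-fold from the median library (next 4.95%). For ENSGACG00000013118 it had 4.07 log2 CPM, and the nearest neither fish 5.47. Personal only replicate 1 had 4.71 log2 CPM of ENSGACG00000004905, with the nearest exposed fish at 4.93. No cause of these values was tested.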

How the results depend on the processing

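The count of called genes was 0 with all libraries and 0 in 36 of the 37 alternatives. Leaving out each of the 14 fish in turn gave 0 to 975 calls, the 975 coming without neither replicate 2. Without neither replicate 3 all 19 settings gave 0 calls, and 487 to 944 genes at an unadjusted p under 0.05, against 868 to 5529 in the 32 settings that kept it. The difference between paternal backgrounds gave 0 calls except in limma-voom (1 gene). Of the 9 named genes, 6 passed at an adjusted p of 0.0476 without neither replicate 2 and in no other setting. ENSGACG00000013537 changed sign in 12 of 53 alternatives. Leaving out single fish of the 14 gave -0.088 to 0.058 or, with neither replicate 3 also left out, -0.12 to 0.054. The estimate was 0.042 without father M20 and 0.17 without father M8. With no father block it was 0.035 or, without neither replicate 3, 0.054. Without neither replicates 2 and 3 it was 0.054, a fit already among the single leave-outs without neither replicate 3 and so counted again. The other 8 kept their sign. With father as a fixed block, 0 genes were called, and 868 or, without neither replicate 3, 666 had an unadjusted p under 0.05. Replicate numbers are in deposition order and pair no fish. edgeR's test on reads was not run, because the deposited unit is log2. Leaving out both replicate 7 or both neither brothers was chosen after seeing the data. Intervals were widest for genes under 1 log2 CPM, and the part of depth in this was not tested.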
